A study of Mus musculus with 6 samples.

Results

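Bcl6 is a zinc finger repressor whose N-terminal BTB domain recruits corepressors, and whose zinc fingers bind a short palindromic DNA element that resembles the sites of STAT factors. In the developing cortex it is known for driving progenitors towards neurons. The peaks described here are narrow Bcl6 peaks that sat just upstream of a single transcription start site (TSS), the stretch of a promoter where sequence-specific factors bind beside the general transcription machinery. The members were chosen by the peak's distance, width and listed genes, all measured in these data. A peak had to have exactly 1 listed gene with its TSS within 1000 bp of the peak centre, a centre upstream of that TSS and a width of at most 2000 bp. The rule kept 676 of 3878 peaks (17.4%), at 676 different genes.

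The peaks came from chromatin immunoprecipitation and sequencing (ChIP-seq) of cortical progenitors grown from A2 lox.Cre Bcl6 mouse embryonic stem cells, which carry a tetracycline-inducible Bcl6 transgene. The series holds 3 Bcl6 ChIP libraries, made with a Bcl6 antibody, and 3 libraries of input DNA. Cells of both groups were at differentiation day 12 with Bcl6 induced for 24 h by 1 µg/ml doxycycline, and both had been given cyclopamine, a hedgehog pathway inhibitor, earlier in differentiation. Peaks were called once, on the 3 pooled ChIP libraries against the 3 pooled inputs, so each peak has 1 value and no replicate error, and no difference below could be tested over replicates. Uninduced cells were not analysed here, so peaks of the transgene and of endogenous Bcl6 cannot be told apart. Expression was not measured in these files, and binding at a gene says nothing of its level, so the labelled cell type could not be checked against its markers. The pooled ChIP held 11718276 tags and the pooled input 5048582 tags after the peak caller kept 1 per position, which were 20.6% and 39.4% of the aligned tags. The 676 peaks covered 892 kb and held 38559 ChIP tags, 13.0% of the tags in all peaks.

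Most of the label held against an independent annotation. A RefSeq start of the listed gene was found for 529 members. The peak centre lay within 1000 bp upstream of the nearest such start in 466 of them and 0 to 1000 bp downstream of it in 51, while 12 had no start of the gene within 1000 bp. A start of some other gene lay within 1000 bp of the matched start in 76 of 509 members (14.9%), against 16.0% of 21262 promoters of protein-coding genes, so a single listed gene did not always mean a single start.

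The promoter sequences of 2 strong members with a match to the Bcl6 element are shown first, because they carry the element that the antibody's target is known to bind. The 300-base windows run from 250 bases before to 50 after a RefSeq start on GRCm38.p6, the build of the peaks (mm10), and are written 5′ to 3′ on the gene's strand. The windows are chr5:74531693-74531992 on the minus strand for Scfd2, and chr2:158794557-158794856 on the plus strand for Dhx35. Beside them stand 2 strong members without a match, chr13:32801780-32802079 on the plus strand for Wrnip1 and chr12:108275344-108275643 on the minus strand for Ccdc85c. Strong members without a match were the more common, since only 2 of the 14 windows available for the 25 members of highest fold held one. Capitals mark TTCNNNGAA in Scfd2 and Dhx35, the NRF1 element in Wrnip1, and the GC box GGGCGG or its complement CCGCCC in Ccdc85c.
Scfd2: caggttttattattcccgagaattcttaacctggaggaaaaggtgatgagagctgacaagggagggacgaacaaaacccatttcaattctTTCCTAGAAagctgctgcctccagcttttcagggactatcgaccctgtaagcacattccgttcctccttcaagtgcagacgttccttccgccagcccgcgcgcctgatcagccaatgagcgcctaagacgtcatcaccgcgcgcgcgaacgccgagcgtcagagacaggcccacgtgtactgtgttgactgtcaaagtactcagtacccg
Dhx35: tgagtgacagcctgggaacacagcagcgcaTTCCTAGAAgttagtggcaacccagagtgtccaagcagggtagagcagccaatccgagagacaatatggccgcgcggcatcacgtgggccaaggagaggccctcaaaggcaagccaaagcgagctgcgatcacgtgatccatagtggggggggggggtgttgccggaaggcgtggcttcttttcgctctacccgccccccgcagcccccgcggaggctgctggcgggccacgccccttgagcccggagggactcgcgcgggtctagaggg
Wrnip1: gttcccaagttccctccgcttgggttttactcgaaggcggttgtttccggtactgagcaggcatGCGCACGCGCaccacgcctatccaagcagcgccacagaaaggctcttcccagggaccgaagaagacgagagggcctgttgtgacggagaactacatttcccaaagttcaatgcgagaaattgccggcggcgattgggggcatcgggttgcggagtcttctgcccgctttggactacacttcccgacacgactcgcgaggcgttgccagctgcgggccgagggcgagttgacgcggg
Ccdc85c: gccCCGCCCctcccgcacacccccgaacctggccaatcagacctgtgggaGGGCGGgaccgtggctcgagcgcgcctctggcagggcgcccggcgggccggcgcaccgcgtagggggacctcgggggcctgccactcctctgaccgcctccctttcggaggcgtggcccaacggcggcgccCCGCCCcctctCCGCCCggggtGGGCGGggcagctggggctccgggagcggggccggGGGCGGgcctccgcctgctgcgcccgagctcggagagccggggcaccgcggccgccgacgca

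Both Scfd2, which encodes a Sec1 family protein, and Dhx35, an RNA helicase gene, carried the exact letters TTCCTAGAA. The peak at Scfd2 had 125 tags and 75.5-fold enrichment of ChIP over the local input background, and its summit, the position of highest tag density, lay 6 bp from the centre of the element. The peak at Dhx35 had 58 tags and 64.2-fold enrichment, with its summit 129 bp from the element. Wrnip1, whose product binds the Werner helicase, had no TTCNNNGAA in this window, yet its peak of 112-fold and 173 tags was among the strongest members by fold. The Ccdc85c window held 6 GC boxes and 40 CpG dinucleotides, with a peak of 60.7-fold and 87 tags. Ccdc85c encodes an apical junction protein of cortical radial glia.

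A window could be matched for 509 of 676 members. The stricter Bcl6 site TTCCTNGAA, searched on both strands, stood in 9 of them (1.77%, exact 95% interval 0.812 to 3.33%). All 32851 promoter windows of the RefSeq table held it in 1.59% of cases, and the windows of protein-coding genes in 1.41%, so the members' share was near the background. Of 677 windows at narrow peaks centred downstream of 1 TSS, 4 held it (0.591%, exact 95% interval 0.161 to 1.51%). The windows lie mostly upstream of the start. They held the summit in 56.0% of the 509 members and 40.9% of the 677 downstream peaks, so these shares do not cover the peaks alike. The 9 sites are shown so that their flanks can be compared, each read in the direction of TTCCTNGAA, which is in capitals. They run in order of fold enrichment, at chr5:74531884-74531912 (minus), chr2:158794577-158794605 (plus), chr14:55713647-55713675 (minus), chr6:29916860-29916888 (plus), chr7:25395972-25396000 (plus), chr10:30600787-30600815 (minus), chr2:113829128-113829156 (plus), chr5:123014857-123014885 (minus) and chr7:43579426-43579454 (minus).
Scfd2: tttcaattctTTCCTAGAAagctgctgcc
Dhx35: cagcagcgcaTTCCTAGAAgttagtggca
Tgm1: atgacctcagTTCCTAGAAaggagaaagt
Strip2: ggggaaaataTTCCTTGAAagagcccccg
Lipe: tcattcacctTTCCTTGAAcctggcccgc
Trmt11: ttagcgccccTTCCTAGAAagtgccaccc
Scg5: cttcccagaaTTCCTGGAAggcattgcag
Orai1: ctggctcgccTTCCTGGAAgcgccccacg
Zfp719: ttttaacttcTTCCTAGAAagtgccatgg

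The sites lay close to the peak summits. Measured from the centre of the element, the summit was at most 65 bp away in 8 of the 9 members and 129 bp away in Dhx35, with a median of 21.0 bp. At Trmt11, a tRNA methyltransferase gene, the gap was 7 bp, at Orai1, which encodes the pore of the store-operated calcium channel, and at Lipe, the hormone-sensitive lipase gene, it was 15 bp each, and at Scg5, a secretory granule chaperone gene, it was 21 bp. All 9 sites were in windows that also held the summit, of which there were 285, and none was in the 224 windows whose summit lay outside. Among windows with the summit and exactly 1 match, 77.8% of the TTCCTNGAA sites were within 50 bp of the summit, against 24.2% of 62 single GC boxes (GGGCGG), 33.3% of 63 single CCAAT boxes, 46.4% of 28 single E-boxes (CACGTG), 50.0% of 12 single cAMP response elements (TGACGTCA) and 52.6% of 19 single TTCNNNGAA matches, which include the stricter sites. Of single ETS elements (CCGGAAG), 33.8% of 71 in the members were as near, against 52.8% of 53 at the downstream peaks. The downstream peaks had only 3 such TTCCTNGAA sites, 10 to 156 bp from the summit. These gaps are descriptions over few promoters, and the difference was not tested.

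The looser palindrome TTCNNNGAA, which reads the same on both strands and contains every stricter site, stood in 32 of 509 windows (6.29%, exact 95% interval 4.34 to 8.76%), against 8.30% of all windows and 7.69% of the 21262 windows of protein-coding genes. Among the 285 windows that held the summit the share was 8.07% (exact 95% interval 5.18 to 11.9%), near both backgrounds. The stricter site had 3.16% in those 285 windows (exact 95% interval 1.45 to 5.91%), against 1.59% of all windows, which is inside the interval, and 1.41% of the protein-coding ones, which is just below it. The subset with the summit was chosen after seeing the data, and the difference was not tested. A window without these letters says nothing about Bcl6 elsewhere in the peak, because the windows are 300 bases and the peaks a median of 1302 bp.

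Elements of CpG-rich promoters were frequent. The GC box GGGCGG, which Sp and Krüppel-like factors bind, stood in 82.7% of the members' windows, 74.6% of the downstream ones and 35.7% of all windows, or 46.2% of the 21262 windows of protein-coding genes. The ETS element CCGGAAG stood in 21.8% of the members' windows, 17.4% of the downstream ones and 8.86% of all windows. TATAAA, the letters of the TATA box, were rare, at 3.34% of the members' windows, 5.91% of the downstream ones and 13.6% of all windows. CCAAT, the NF-Y element, was near the background, at 35.2% of the members' windows and 37.4% of all windows. Base composition differed alongside these shares. The median window of a member had 66.7% G and C and 27 CpG dinucleotides, a median window of the downstream peaks 63.7% and 24, and a median window of all promoters 52.7% and 7. The part of base composition in the motif shares was not tested.

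**Figure D1:**
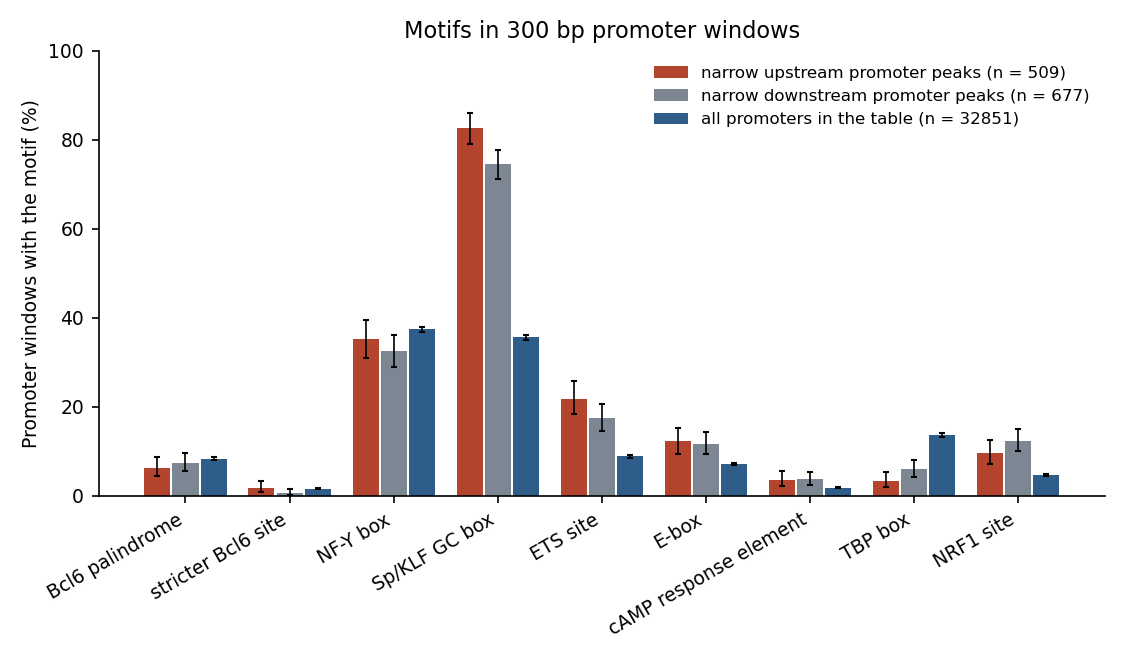
Share of 300 bp promoter windows that hold each element on either strand (y axis, percent), for narrow upstream promoter peaks, narrow downstream promoter peaks and all promoters of the RefSeq table. Error bars are exact 95% binomial intervals, which cover counting only. The GC box stands in 82.7% of the members' windows against 35.7% of all windows, while both Bcl6 elements are near the level of all promoters.

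The E-box CACGTG stood in 12.2% of the members' windows, 11.7% of the downstream ones and 7.15% of all windows. It stood in 43 of 273 windows of members at or above the median fold of those with a window (15.8%). Below that median it stood in 19 of 236 (8.05%). Among the 14 windows available for the 25 members of highest fold it stood in 5, at Scfd2, Dhx35, Frmd6, Atp6v0b and Arfgef2. GC boxes stood in 83.2% of the stronger and 82.2% of the weaker members' windows. The E-box shares were picked out among 9 elements after their values were seen, and their difference was not tested.

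The enrichment of the members was moderate and much like that of all peaks. Their median fold was 21.3 (quartiles 17.3 and 26.6, lowest 10.6), against 21.3 (16.8 and 27.2) over all 3878 peaks and 21.0 (17.1 and 25.7) over the 870 narrow downstream promoter peaks. The median tag count was 53.0 in the members (lowest 22.0), 53.5 in the downstream peaks and 58.0 in all peaks. A count of 53, as at the BMP receptor gene Acvr1, has an exact 95% Poisson interval of 39.7 to 69.3 tags. The p-value score (−10 log10 of the peak caller's p) had a median of 69.7 in the members and 71.7 in all peaks. These values come from the same ChIP and input contrast that chose the members and are given without a test.

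Enrichment of at least 50-fold was found in 16 members (2.37%, exact 95% interval 1.36 to 3.82%), against 3.15% of all peaks and 1.38% of the downstream peaks. The folds were coarse, since only 318 different values occurred and 443 members shared theirs with another, 32 of them at 15.96 and 29 at 21.28. An empirical false discovery rate (FDR) above 5% was rare, in 2 members (0.296%) against 0.980% of all peaks. Wrnip1 was 1 of them, at 5.71%, and both were among the 5 members of highest score. Of the same 5, Ripk2 had 2.67%, Scfd2 2.6% and Zbtb22 2.11%, against a median of 0.800% over all members. A higher FDR thus did not mark the weaker peaks.

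The 676 members were fewer than the 870 narrow peaks whose centre lay downstream of a single TSS. They made up 43.7% of the 1546 peaks of both kinds (exact 95% interval 41.2 to 46.2%, counting error only). A further 7 promoter peaks were centred exactly on the TSS and belong to neither. The member centres lay a median of 144 bp upstream of the listed TSS, with 188 members at 101 to 200 bp, 113 at 1 to 50 bp and 53 beyond 500 bp. Median folds in these 3 bins were 22.3, 21.9 and 19.7, against 21.5, 21.3 and 19.1 at the same distances downstream. The peak itself reached over the TSS in 654 members (96.7%).

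Summits followed the centres only in part. Where a strand could be read or inferred for the gene, the summit lay upstream of the listed TSS in 499 of 660 members (75.6%). It lay at or downstream of the TSS in 161 (24.4%). The median over the 660 was 114 bp upstream. At Fndc3a the centre lay 72 bp upstream and the summit 382 bp downstream of the TSS. At the Wnt acylation gene Porcn the summit was 1041 bp upstream, beyond the centre at 764 bp.

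Of the members named here at the edges of the rule, Irf2bp2, Tnrc18 and Zfand3 were below the members' lower quartile of 17.3-fold, and the others were above it. Ctdp1, which encodes a phosphatase of RNA polymerase II, was 1 bp upstream of its TSS at 18.1-fold, and Homer3, a synaptic scaffold gene, 3 bp upstream at 21.3-fold. Just outside lay 3 peaks 1 bp downstream, such as that of Ago3 at 29-fold. The farthest members were Fosl2 (955 bp, 27.8-fold) and Irf2bp2 (946 bp, 12.9-fold), and just outside lay the peak of Arhgap33 at 1024 bp and 26.6-fold. The widest members were Tnrc18 (2000 bp, 11.1-fold) and Zfand3 (1998 bp, 13.3-fold), and the first wider peaks were those of Ldb1 (2008 bp, 16.0-fold) and Suox (2009 bp, 11.8-fold).

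**Figure D2:**
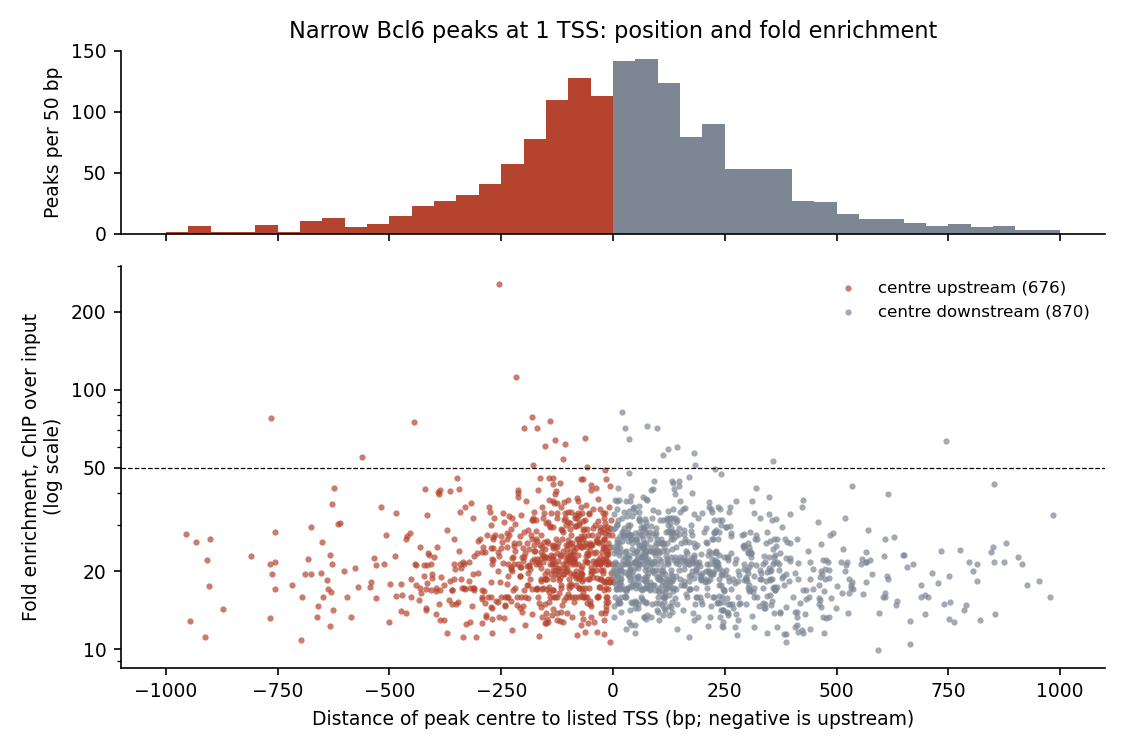
Position of narrow promoter peaks with 1 listed TSS (x axis, distance of the peak centre to the TSS in bp, negative upstream), as peaks per 50 bp above and as fold enrichment on a log axis below. Each point is 1 peak, 676 upstream in red and 870 downstream in grey, and the dashed line is 50-fold. Both sides are densest near the TSS and hold few points above 50-fold, 16 upstream and 12 downstream.

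Among the strongest peaks was that of Wrnip1, at chr13:32801162-32802481, with 173 tags, 112-fold enrichment and a score of 508. Porcn had 78.1-fold enrichment from 115 tags, and Scfd2 75.5-fold from 125 tags.

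Below them no single function led. The lncRNA gene 9230009I02Rik had 74.9-fold from 44 tags in the narrowest member, of 584 bp. Srbd1 had 71.3-fold and 107 tags, Rassf8, a Ras-association domain gene, 70.9-fold and 69 tags, and Afg3l2, which encodes a subunit of a mitochondrial inner membrane protease, 65.0-fold and 51 tags. Ripk2, the kinase that transmits NOD receptor signals, had 61.7-fold and 136 tags. The FERM domain gene Frmd3 reached 55.2-fold with 36 tags, which have an exact 95% Poisson interval of 25.2 to 49.8. Zbtb22, a BTB zinc finger gene like Bcl6 itself, had 54.1-fold and 145 tags. The elongation factor gene Eef1d (51.4-fold, 60 tags) and the proteasome lid gene Psmd3 (50.2-fold, 148 tags) closed the group at 50-fold or more.

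The next members had 43.5- to 49.2-fold. Agrn, the extracellular matrix organiser agrin, had 45.9-fold and 122 tags. Arfgef2, whose loss in humans causes periventricular heterotopia, had 45.4-fold and 46 tags. Atp6v0b, a proton pump subunit gene, and Slc29a4, a monoamine transporter gene, had 45.6-fold each, with 99 and 78 tags. Sppl3, an intramembrane protease gene, had 49.2-fold and 52 tags, Frmd6 45.8-fold and 88 tags, Fndc3a 45.3-fold and 69 tags, Larp1, which encodes an RNA-binding regulator of translation, 45.3-fold and 64 tags, and Rfx2, a regulator of cilium genes, 43.5-fold and 61 tags. Ordered by tags instead, Pip4k2b, a phosphoinositide kinase gene, joined the first 5 with 154 tags at only 23.7-fold.

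**Figure D3:**
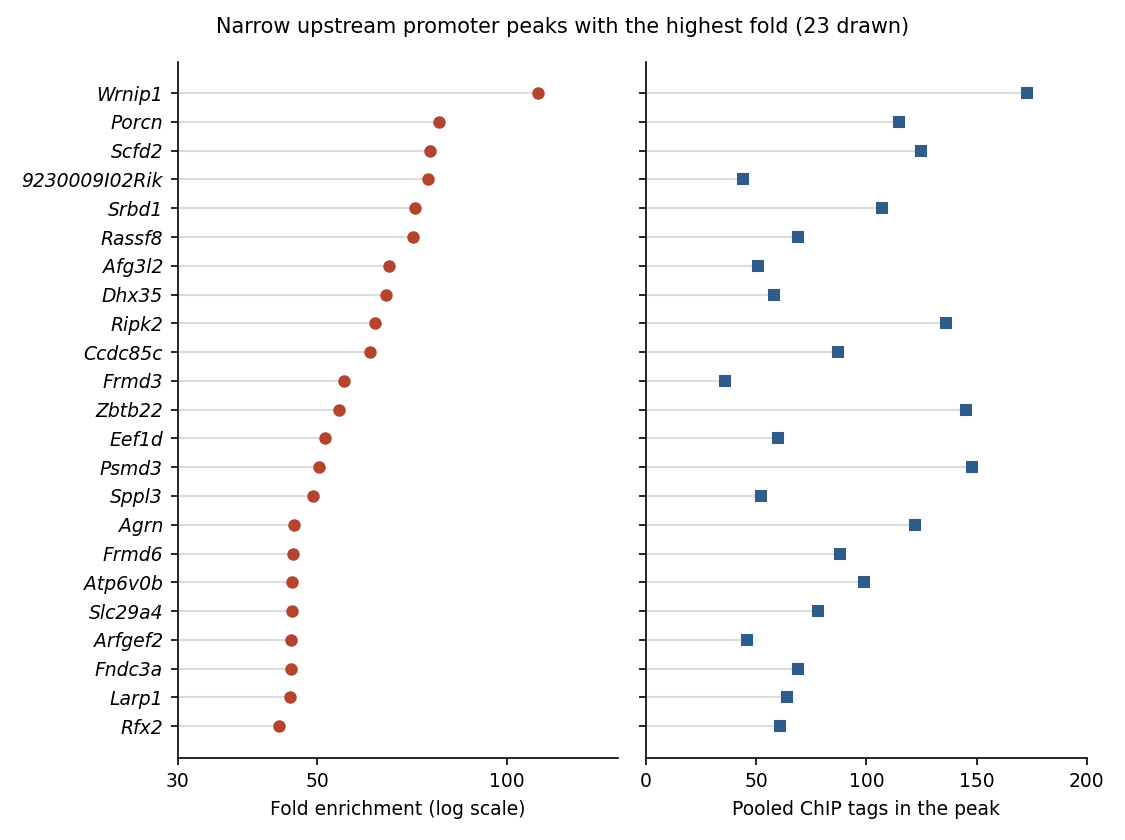
Of the 25 narrow upstream promoter peaks with the highest fold enrichment, 23 are drawn by fold (left, log axis), with the pooled ChIP tags in the same peaks (right). Each point is 1 peak of the pooled data, without replicates. Wrnip1 stands highest of those drawn, at 112-fold, and tags do not follow the order of the folds, as Frmd3 with 36 and Psmd3 with 148 show.

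The target genes of the members were nearly all protein-coding (666 of 676). These 666 were 3.04% of the 21896 protein-coding genes of the RefSeq table, the level against which the lists below are read. The lists overlap in part, were chosen with earlier results of these data known and were not tested. The 3.04% counts genes that are silent in neural cells as well, such as the 1106 olfactory receptor genes, of which 0 had a member.

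Among signalling pathways, Wnt genes had a member in 7 of 76 cases (9.21%, exact 95% interval 3.78 to 18.1%), with a median of 27.4-fold. Besides Porcn these were Kremen1, a receptor of Dickkopf inhibitors (41.2-fold, 55 tags), Bcl9, which tethers the coactivator Pygopus to beta-catenin (41.2-fold, 87 tags), the nuclear effector Tcf7 (27.4-fold, 71 tags), the ligand Wnt9a (21.6-fold, 38 tags), Pygo2 (17.3-fold, 59 tags) and the R-spondin receptor Lgr4 (17.0-fold, 46 tags). They thus ran from ligand acylation to the nuclear complex. Hedgehog genes had a member in 3 of 21 cases (14.3%, exact 95% interval 3.05 to 36.3%). These were the transcription factor Gli3 (28.4-fold, 756 bp upstream), Spop, which encodes an adaptor for Gli degradation (24.6-fold), and the receptor gene Ptch1 (17.0-fold, 756 bp upstream).

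BMP and TGF-beta genes had 4 of 38 (10.5%, exact 95% interval 2.94 to 24.8%). The ubiquitin ligase gene Smurf2 had 24.3-fold, the inhibitory Smad6 21.1-fold, the receptor gene Acvr1 14.3-fold and the corepressor gene Ski 13.2-fold. FGF and IGF genes had 4 of 46 (8.70%, exact 95% interval 2.42 to 20.8%). Among them were the scavenger receptor gene Igf2r (26.6-fold), the receptor gene Fgfr2 (23.6-fold, 24 tags), and the nuclear effector Etv4 (16.4-fold). JAK/STAT genes had 3 of 32 (9.38%), the feedback genes Socs5 (22.3-fold) and Socs3 (16.8-fold), and Pias3, which encodes an inhibitor of activated STAT (11.2-fold). Notch pathway genes had 0 of 37, with an exact 95% interval up to 9.49% that also includes the background. A narrow peak downstream of a single TSS was found at 4 of the 37 (10.8%). The same share was 15.6% for JAK/STAT, 13.2% for BMP and TGF-beta, 6.52% for FGF and IGF, 5.26% for Wnt and 4.76% for hedgehog genes. In all, 862 of the 870 narrow downstream peaks were at protein-coding genes, of which there were 21896. A peak of some kind in the authors' list was found for 14 of the 37, and that list names 4540 genes in all.

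Regulators of G1/S had a member in 4 of 30 cases (13.3%). Cdk4, a kinase partner of D cyclins, had 21.9-fold and 80 tags, and the Cdk inhibitor gene Cdkn1b 21.5-fold and 53 tags, while the Cdk4 inhibitor gene Cdkn2d and the Myc family gene Mycl1 had 12.7-fold each. In replication and mitosis, 2 of 38 genes had a member, the proliferation marker Mki67 (25.8-fold) and the mitotic survivin gene Birc5 (24.5-fold). Bcl6, Hes1, Ccnd1 and Ccnd2 had peaks in the authors' list (1, 2, 3 and 1), and none of these was a member, and Hes5 had 0.

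Of the genes listed here as lymphoid targets of Bcl6, 4 of 30 had a member (13.3%), among them Gata3 (30.4-fold), Cdkn1b and Arf1 (16.8-fold). Of the Bcl6 corepressors and chromatin partners only Tbl1x, a subunit of the NCoR complex, had a member (24.8-fold, 1 of 27). Among transcription factor families, BTB zinc finger genes had 1 of 45 (2.22%), Zbtb22. Krüppel-like and Sp genes had 3 of 26 (11.5%), Klf3 (22.8-fold), Sp5 (18.0-fold) and Sp4 (12.9-fold). Forkhead genes had 1 of 44 (2.27%), Foxo4 (16.0-fold), and genes named Zfp 9 of 397 (2.27%), led by Zfp598 (28.8-fold). Histone and DNA modifying enzymes had 6 of 53 (11.3%), with a median of 16.7-fold. They were the DNA methyltransferase gene Dnmt3a (24.8-fold), the H3K79 methyltransferase gene Dot1l (21.8-fold), the demethylase gene Kdm2a (16.9-fold), the MLL family genes listed as Mll3 (16.6-fold) and Wbp7 (16.2-fold), and Ehmt2 (11.2-fold).

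Counts in the lists of cell identity markers were near the background of 3.04%, given their size. Cortical progenitor and cortical neuron markers had 1 of 32 each (3.12%, exact 95% interval 0.0791 to 16.2%), Gli3 and the microtubule protein gene Mapt (23.1-fold, 33 tags). Ventral and caudal neural markers (30), pluripotency markers (22) and mesoderm, endoderm and fibroblast markers (34) had 0, as did housekeeping genes (25), with upper 95% limits of 10.3 to 15.4%. Peaks of some kind in the authors' list belonged to 16 of the 22 pluripotency genes and 16 of the 25 housekeeping genes. None of them was a narrow peak upstream of a single TSS. The level of 3.04% does not apply to these counts, since the authors' list names 4540 genes in all, beside 21896 protein-coding genes. Axon guidance genes had 5 of 47 (10.6%), the semaphorin receptor gene Plxnd1 (37.4-fold, 44 tags), its partner receptor Nrp2 (23.5-fold), the ligand Sema5a (23.1-fold), and the ephrin receptors Ephb4 (20.2-fold) and Ephb3 (16.6-fold).

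Of the large families of cell maintenance, translation factors had 7 of 71 (9.86%), led by Eef1d, with Eif4h (30.9-fold, 74 tags) and Eif5a2 (29.6-fold, 40 tags) next among the factors themselves. The list was drawn by gene name and also took in Mettl13 (35.5-fold) and Fam86 (33.5-fold), whose products are methyltransferases of elongation factors. RNA processing genes had 6 of 85 (7.06%), led by Dhx35 and Ddx6 (27.9-fold). Cytosolic ribosomal protein genes had 2 of 86 (2.33%), Rpl18 (19.5-fold) and Rps19 (11.5-fold). Oxidative phosphorylation genes had 2 of 96 (2.08%). Mitochondrial ribosomal protein genes had 4 of 78 (5.13%), led by Mrpl28 (27.7-fold), and proteasome genes 2 of 39 (5.13%), Psmd3 and the ATPase subunit gene Psmc6 (17.4-fold). Genes of Rab GTPases and their regulators had 4 of 69 (5.80%), with Rab43 at 41.0-fold and 103 tags and Rab3gap2, a subunit gene of a Rab3 GTPase-activating complex, at 33.7-fold and 40 tags. Solute carrier genes had 12 of 364 (3.30%) and ubiquitin system genes 11 of 243 (4.53%), both near the background. The ubiquitin system members had a median of 17.2-fold, with Usp53 the highest at 26.6-fold.

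**Figure D4:**
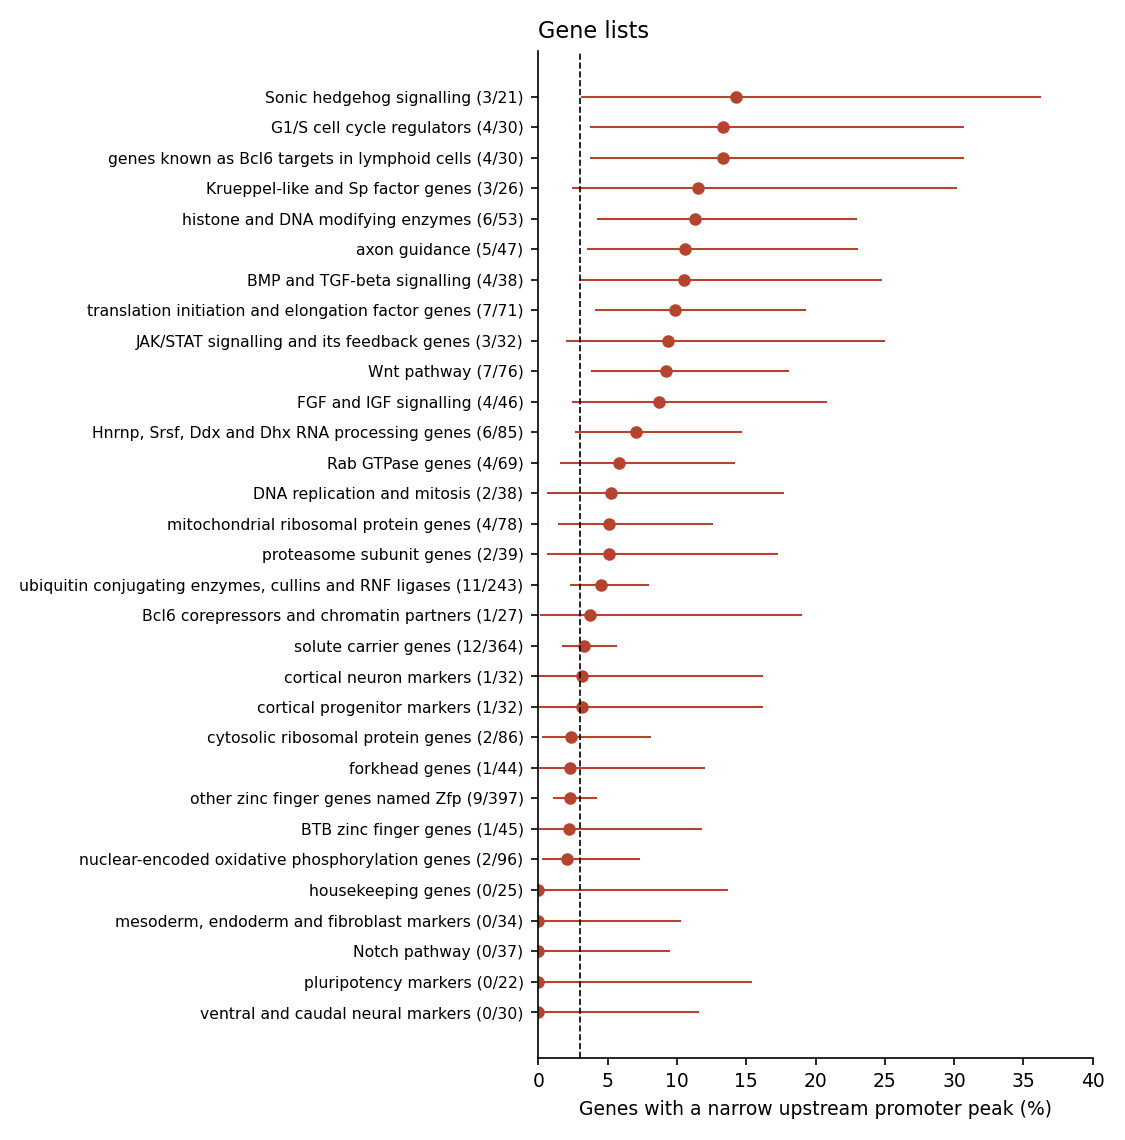
Share of the genes of each list that had a narrow upstream promoter peak (x axis, percent), with exact 95% binomial intervals that cover counting of genes only. Numbers in brackets give genes with a member over protein-coding genes in the list, and the dashed line is the share over all protein-coding genes, 3.04%. Hedgehog genes stand at 14.3%, and 5 lists, the Notch pathway among them, stand at 0 with intervals that reach past the dashed line. Olfactory receptor genes are not drawn.

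For most genes the member was the only peak assigned to the gene in the authors' list. That list assigns peaks to genes by position, with an extension of up to 1000000 bp. Whether a distant peak acts on its listed gene was not tested. It was the sole peak of the gene in 561 of 676 cases (83.0%), against 79.6% of all 4540 genes in the authors' list, and 28 members (4.14%) belonged to genes with at least 3 peaks, against 5.20% of all genes. Tfap2c, a transcription factor gene, had 6 peaks, of which the member had 28-fold 454 bp upstream and the one of highest fold 34.9-fold 26.6 kb downstream. Zmiz1, which encodes a transcriptional coregulator, also had 6. Its member had 16.0-fold 86 bp upstream, a neighbouring peak 27.5-fold 1568 bp upstream and the one of highest fold 35.5-fold 146 kb downstream. The repressor gene Klf3, 1 of 4 genes with a member and 4 peaks, had 22.8-fold in the member and 43.3-fold 573 kb upstream.

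Fblim1 and Enc1 had 5 peaks each. At Fblim1, an adhesion protein gene, the member had the highest fold, 38.3 with 85 tags, and the other 4 peaks, 23.3 to 52.1 kb downstream, had 14.0- to 18.6-fold with 57 to 207 tags. At Enc1, which encodes a BTB-kelch protein of the nervous system, the member had 24.8-fold and 56 tags, and a peak 41.6 kb downstream 24.6-fold and 79 tags. A block of 3 peaks 248 to 276 kb downstream, the widest of them 13470 bp with 932 tags, had 13.3- to 20.7-fold.

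Over all chromosomes members were 17.4% of the peaks. Chromosome 11 had the most members, 74 of 386 peaks (19.2%, exact 95% interval 15.4 to 23.5%). On chromosome 5 they were 61 of 268 peaks (22.8%, 17.9 to 28.3%), on chromosome 16 they were 23 of 100 (23.0%, 15.2 to 32.5%) and on chromosome 14 they were 15 of 109 (13.8%, 7.91 to 21.7%). These chromosomes were picked after their values were seen, and the shares were not tested.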

How the data were processed

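The 6 libraries were pooled by group, per the series' design. Reads were aligned with Bowtie to mm10, per the submitters' processing notes, and peaks were called with MACS 1.4.2 at a p-value cutoff of 1e-05 with at most 1 tag per position, per the file headers. The deposited tag counts are unnormalized counts over the pooled ChIP libraries. The fold enrichment is the authors' ratio of ChIP over local input background, the score is −10 log10 p in the authors' table, under a column name that a spreadsheet had overwritten, and the FDR is a percent by the authors' peak caller. Genes and distances are those of the deposited GREAT 3.0.0 list, joined by peak number.

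Members, gene lists and motifs were chosen with earlier results of these data known. Named members are the 25 of highest fold, the 5 of highest score, of most tags and of most peaks per gene, list members, and the peaks at the edges of the rule; some of these are not reported here. The E-box, multi-peak and chromosome results were chosen after their values were seen. Genes were matched to RefSeq tables of GRCm38.p6 by current or unique older symbol (673 of 676 members). A promoter window was used where its start lay within 500 bp of the listed TSS. Strand was set for 660 members. It came from a RefSeq start of the gene where these tables gave one. Otherwise it was inferred from which end of the gene fitted the listed distance. Intervals are exact 95% Clopper-Pearson or Poisson intervals, or order-statistic intervals for medians, computed with scipy 1.17.1 under Python 3.11.15. They cover counting error only, since PCR reads carry no molecular identifiers. The scan and the median interval were checked on simulated data.

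No test was made, because the pooled data hold 1 value per peak. The alternatives were other windows, widths, score and FDR limits, chromosomes, the summit in place of the centre, the nearest gene where several were listed, and the stricter motif.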

Additional observations from a re-analysis of the deposited data

How the results depend on the processing

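Each of 4 results (the number of members, their median fold, the share at 50-fold or more and the share with TTCNNNGAA) was recomputed under 9 other settings, the last also with the stricter motif and, chosen after seeing the data, with only windows that hold the summit. Of 38 values, 32 stayed within 1.5 times the reported count or inside the 95% interval of the reported value. The other 6 were as follows. With only peaks at or above the median score of all peaks there were 304 members, their median fold was 25.9 and 5.26% were at 50-fold or more. The median fold was 22.5 with a width limit of 1500 bp and 21.1 with 3000 bp. The stricter motif TTCCTNGAA gave 1.77% in place of 6.29%. The changes with the score limit and with the stricter motif follow from the construction of the alternative, which keeps stronger peaks or a rarer motif. Whether the changes with the width limits do so too was not tested, and 21.1 lies just below the reported interval of 21.3 to 22.2. Upstream promoter peaks wider than 2000 bp had a median of 17.4-fold, against 21.3-fold in the members. With distance measured from the summit there were 747 members, and 674 with an FDR of at most 5%. A window of 200 bp around the summit was not run, since no genome sequence was used here. No paired analysis was possible because the libraries were pooled before peak calling, and no replicate could be left out for the same reason. Depth limits single peaks, and the member with the fewest tags has 22.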
